A study of Rattus norvegicus with 5 samples.

Results

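The genes described here are the ligands, receptors, antagonists and close partners of the TGF-beta and BMP pathways, taken by gene symbol in rat cartilage. A probe set was taken when the only symbol the platform annotation gives it matched the following rule. It took the symbols of Bmp, Gdf, Tgfb and inhibin ligands, Tgfbr, Acvr and Bmpr receptors, and Smads and Smurfs. It also took the antagonists noggin, gremlin, chordin and follistatin or their relatives, and Ltbp, Smoc, Tgfbi, Bambi and Id1 to Id4. The rule itself used no measured value, but it was set with earlier results of these data known. It found 101 of the 31042 probe sets other than controls, and these belong to 62 of the 14217 named genes. Tgfbr2, Acvr1b, Bmpr1b, Gdf1, Gdf2, Gdf3, Gdf5, Gdf7 and Bmp10 have no probe set of their own under this rule and are not analysed here.

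Cells were taken by laser-capture microdissection from 7 µm frozen sections of wild type male Sprague-Dawley rats aged 5 weeks. The mandibular condylar cartilage (MCC) was divided into the fibrous zone (FZ) at the joint surface, the proliferative zone (PZ), the zone of mature chondrocytes (MZ) and the zone of hypertrophic chondrocytes (HZ), and the femoral condylar cartilage (FCC), which the study captured from its middle and deep zones, was the control tissue. No group carried an altered allele or a treatment. Lysates of 30 sections were pooled for each group per the labels, whereas the study's methods describe a larger pool for FZ. The RNA was amplified in linear cycles, and each group gave 1 Affymetrix array. There are therefore no replicates, no test was possible, and every difference below compares single arrays. The labels do not say how many animals were pooled.

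The deposited values are log2 values less the probe set's own median over the 5 arrays. A value of 0 marks the array or arrays at that median and is not an absence of expression, and no expression level can be read from any value. A log2 difference of 2, which is 4-fold, was the study's cut-off, and a difference of 1, which is 2-fold, was added as a lower one. The FZ and PZ arrays are called superficial and the MZ and HZ arrays deep. A probe set was counted as higher in the superficial or the deep zones when the means differed by the cut-off and both arrays of one side lay on one side of both arrays of the other.

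TGF-beta, activin and BMP ligands are secreted dimers that bring together type I and type II receptor kinases, and the receptors phosphorylate Smad proteins that then act in the nucleus. Latent TGF-beta binding proteins such as Ltbp1 and Ltbp3 hold TGF-beta in the matrix. Noggin, gremlin, chordins and follistatins bind ligands outside the cell and keep them from their receptors. The pathways are known in cartilage for the formation of chondrocytes, their proliferation and their passage to hypertrophy, and Id genes are direct targets of BMP signalling in many cells.

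Hyaline cartilage markers had higher values in FCC than in the MCC. Of 17 such genes, 15 exceeded the mean of the 4 zones by at least 1 in FCC. Of 11 genes of fibrous tissue and tendon, 10 were at least 1 higher in the superficial than in the deep zones, and their median value was 2.87 in FZ. Markers of chondrocyte hypertrophy did not separate HZ from MZ, with list medians of 0.37 in HZ and 0.62 in MZ. The 18 hybridization controls had their highest means in FCC and PZ, at 0.50 and 0.44, against −0.15 to −0.024 in the other arrays. The 5′ minus 3′ difference of beta-actin was highest in FCC at 1.24, against −0.24 to 0.14 elsewhere, and that of GAPDH was highest in PZ at 1.36, against −0.21 to 0.27 elsewhere. These contrasts are relative to each probe set's median and not ratios of levels. Their part in the differences involving FCC or PZ was not tested.

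Promoters are shown for the pair of genes with the largest difference in each of the 3 main patterns, as far as the promoter table holds them. Smoc1 and Gdf10 were higher in FCC, Ltbp4 and Tgfbi in the superficial zones, and Bmp3 and Grem1 in the deep zones. Each sequence runs from 250 bases before to 50 bases after the annotated start, 5′ to 3′ on the gene's strand, from RefSeq (GRCr8). Capitals mark GGCGCC, a palindrome known as a Smad-binding motif, and CAGAC or its reverse complement GTCTG, the short Smad-binding element.

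Smoc1: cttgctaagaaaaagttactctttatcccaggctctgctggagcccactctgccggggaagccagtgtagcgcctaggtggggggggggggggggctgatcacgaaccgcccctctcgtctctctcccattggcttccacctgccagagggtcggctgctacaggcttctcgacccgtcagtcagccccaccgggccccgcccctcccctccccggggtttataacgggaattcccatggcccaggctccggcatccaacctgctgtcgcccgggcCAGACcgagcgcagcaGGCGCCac
Gdf10: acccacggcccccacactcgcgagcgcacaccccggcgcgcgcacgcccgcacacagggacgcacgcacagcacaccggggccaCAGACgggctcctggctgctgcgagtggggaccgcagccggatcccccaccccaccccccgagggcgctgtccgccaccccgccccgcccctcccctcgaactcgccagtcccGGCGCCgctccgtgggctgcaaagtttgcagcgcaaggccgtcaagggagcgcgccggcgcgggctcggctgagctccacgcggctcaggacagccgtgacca
Ltbp4: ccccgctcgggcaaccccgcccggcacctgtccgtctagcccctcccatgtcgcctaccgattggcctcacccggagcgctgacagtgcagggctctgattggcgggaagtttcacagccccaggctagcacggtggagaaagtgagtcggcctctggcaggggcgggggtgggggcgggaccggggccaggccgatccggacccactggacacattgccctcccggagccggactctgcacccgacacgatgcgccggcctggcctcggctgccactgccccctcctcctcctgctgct
Tgfbi: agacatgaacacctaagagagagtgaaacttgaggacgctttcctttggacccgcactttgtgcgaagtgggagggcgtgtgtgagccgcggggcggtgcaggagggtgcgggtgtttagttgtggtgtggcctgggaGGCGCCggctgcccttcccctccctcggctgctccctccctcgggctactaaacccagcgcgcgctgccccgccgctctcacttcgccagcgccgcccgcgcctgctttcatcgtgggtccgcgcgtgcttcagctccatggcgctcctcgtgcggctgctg
Bmp3: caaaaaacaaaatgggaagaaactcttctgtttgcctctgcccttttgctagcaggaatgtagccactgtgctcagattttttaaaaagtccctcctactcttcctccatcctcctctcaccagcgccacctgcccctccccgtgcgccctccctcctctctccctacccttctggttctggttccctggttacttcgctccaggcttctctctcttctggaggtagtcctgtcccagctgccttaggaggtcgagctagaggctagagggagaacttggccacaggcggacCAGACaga
Grem1: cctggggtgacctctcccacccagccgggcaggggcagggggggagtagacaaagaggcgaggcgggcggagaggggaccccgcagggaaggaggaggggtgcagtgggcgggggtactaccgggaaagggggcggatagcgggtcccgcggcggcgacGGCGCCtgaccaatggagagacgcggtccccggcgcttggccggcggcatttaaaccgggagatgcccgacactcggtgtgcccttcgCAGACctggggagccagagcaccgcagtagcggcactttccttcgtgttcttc

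Smoc1 lies on the plus strand at chr6:106432356-106432655, Gdf10 on the plus strand at chr16:9243262-9243561 and Ltbp4 on the minus strand at chr1:91759758-91760057. Tgfbi lies on the minus strand at chr17:7990064-7990363, Bmp3 on the minus strand at chr14:11041233-11041532 and Grem1 on the minus strand at chr3:120978270-120978569. The promoters of Smoc1, Gdf10 and Grem1 each held 1 match to GGCGCC and 1 to CAGAC, that of Tgfbi held 1 match to GGCGCC, that of Bmp3 held 1 match to CAGAC, and that of Ltbp4 held 0 of either. The table holds 52 of the 62 genes. GGCGCC was in 19 of these 52 promoters (36.5%) and in 14.1% of 21851 promoters of protein-coding genes, searched on both strands. CAGAC or GTCTG was in 20 of 52 (38.5%) and in 50.1% of all. The median GC content was 65.2% for the 52 promoters and 55% for all, and its part in these shares was not tested. A match is a run of letters and not a binding site.

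Over all pairs of arrays, 15 of the 101 probe sets (14.9%) had a range of at least 2, while the share over all probe sets was 6.51%. These 15 belong to 15 genes. They comprise 4 BMP ligands, Gdf10, the activin subunit Inhba, Ltbp2, Ltbp4 and Tgfbi, 5 probe sets of antagonists and Id3. None of the 24 probe sets of Smads and Smurfs and none of the 14 of receptors reached 2. The median range was 0.75 for the 101 probe sets and 0.58 for all, and 60 of the 101 had a range under 1.

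**Figure D1:**
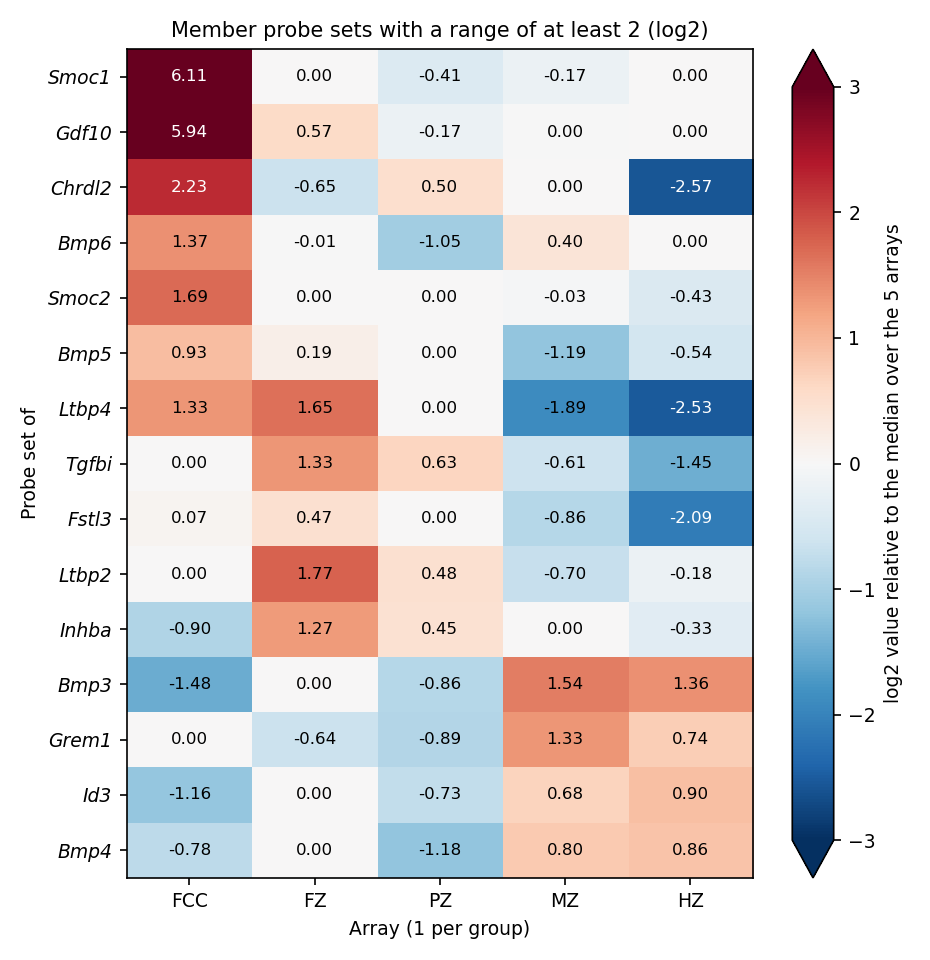
Log2 value of each of the 15 probe sets with a range of at least 2 (rows) in each of the 5 arrays (columns), relative to the probe set's median, with the value printed in each cell and the colour scale clipped at 3. Smoc1 at 6.11 and Gdf10 at 5.94 in FCC are the highest values, and Chrdl2 and Ltbp4 in HZ, at −2.57 and −2.53, are the lowest.

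**Figure D2:**
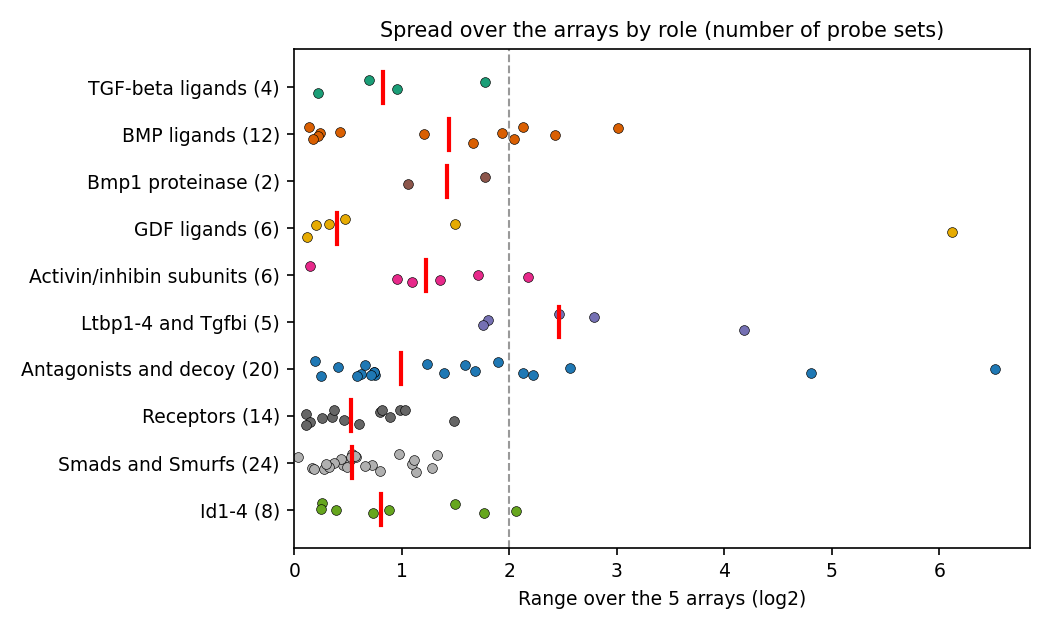
Range over the 5 arrays on the log2 scale for each of the 101 probe sets (points, with vertical jitter for legibility), by role, with the number of probe sets in brackets, the median in red and the range of 2 as a dashed line. The points of receptors, at 0.10 to 1.49, and of Smads and Smurfs, at 0.031 to 1.33, all lie left of the dashed line.

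FCC was compared with each zone in turn, and these comparisons share the FCC array. At the cut-off of 2, 1 probe set was higher in FZ than in FCC (Inhba; 0.828% of all probe sets were) and 3 were lower (Smoc1, Gdf10 and Chrdl2; 1.30% of all). In PZ, 0 were higher (0.809% of all) and 3 lower (Smoc1, Gdf10 and Bmp6; 1.62% of all). In MZ, 1 was higher (Bmp3; 1.15% of all) and 5 were lower (Smoc1, Gdf10, Chrdl2, Ltbp4 and Bmp5; 1.33% of all). In HZ, 2 were higher (Bmp3 and Id3; 1.68% of all) and 6 lower (Smoc1, Gdf10, Chrdl2, Ltbp4, Fstl3 and Smoc2; 1.86% of all). Smoc1 and Gdf10 were thus lower in each of the 4 zones. When the arrays were shifted to equal hybridization controls, 5 probe sets in place of 1 were higher in FZ, 5 in place of 1 in MZ and 7 in place of 2 in HZ, and 3 in place of 5 were lower in MZ. That shift moves the median of all probe sets against FCC to 0.65 in FZ, 0.10 in PZ and 0.52 in both deep zones. Shares of all probe sets past the cut-off under it were not computed.

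Set against the mean of the 4 MCC zones, 4 probe sets were at least 2 higher in FCC (1.26% of all were) and 0 were at least 2 lower (0.554% of all). These 4 were Smoc1 with a difference of 6.25, Gdf10 with 5.85, Chrdl2 with 2.91 and Ltbp4 with 2.02. At the lower cut-off, 15 probe sets of 14 genes were higher in FCC, 14.9% of the 101 against 4.34% of all. Another 7 were lower, 6.93% of the 101 against 5.32% of all, and these shares lie close to each other. The split depends on the scaling. With the arrays shifted to equal hybridization controls, which moves the median of all probe sets for this comparison to −0.45, 8 were higher and 16 lower. The shares of all probe sets under the shift were not computed. The 8, of Bmp6, Bmp7, Chrdl2, Gdf10, Ltbp4, Smoc1 and Smoc2, were also among the 15, and all 7 that were lower as deposited stayed lower. The median difference was 0.024 for the 101 probe sets and −0.013 for all.

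The 7 probe sets lower in FCC, a share close to that of all probe sets, were of Bambi, Bmp1, Bmp2, Bmp3, Gdf11, Id3 and Inhba. Cell cycle genes moved the same way, with 8 of 10 at least 1 lower in FCC and a median difference of −1.30, as did 6 of 8 pan-leukocyte, 3 of 4 osteoclast and 3 of 7 macrophage genes. Their part in the values of these 7 was not tested.

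**Figure D3:**
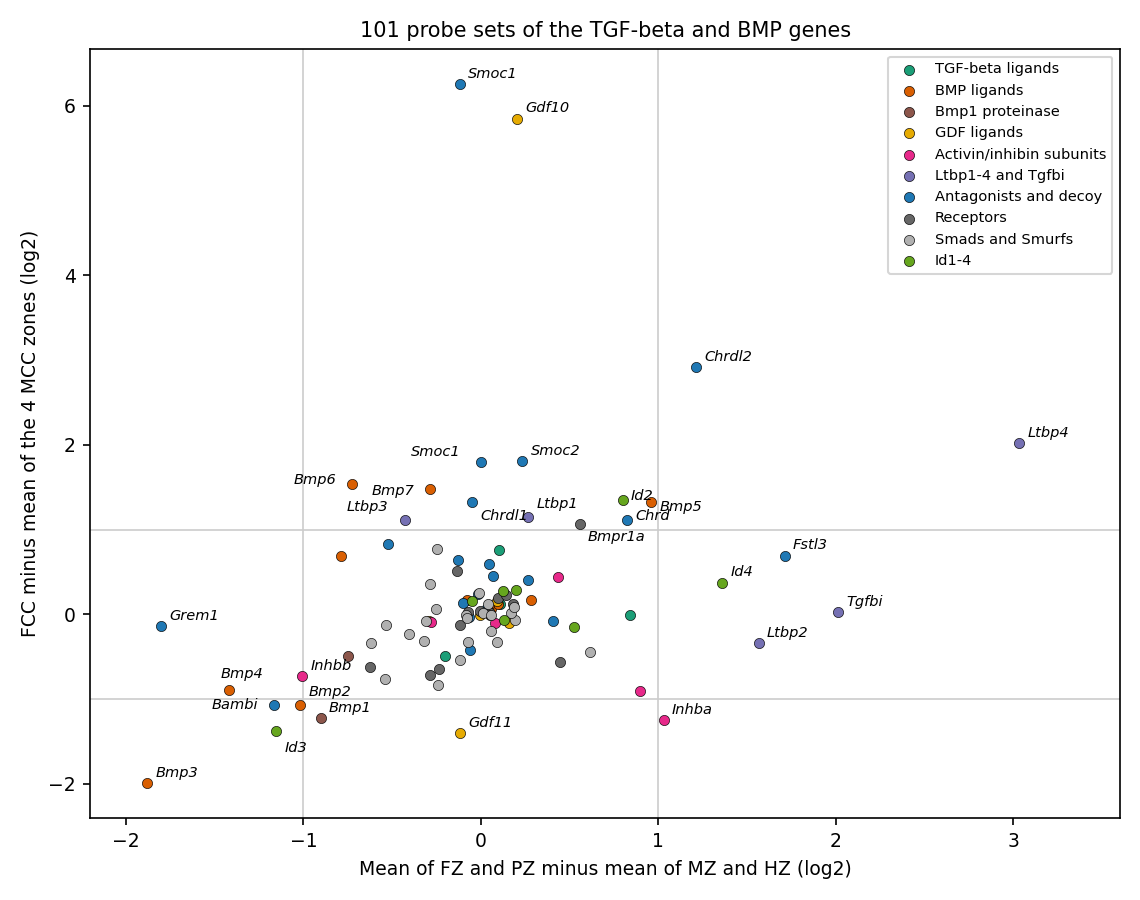
Difference between FCC and the mean of the 4 MCC zones (vertical axis, log2) against the difference between the mean of the superficial zones FZ and PZ and the mean of the deep zones MZ and HZ (horizontal axis, log2), 1 point per probe set, coloured by role, with grey lines at −1 and 1. Smoc1 and Gdf10 stand at the top near 0 on the horizontal axis, Ltbp4 lies farthest right at 3.03, and Bmp3 lies lowest and farthest left at −1.99 and −1.88.

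The largest FCC difference was that of a secreted modulator. Smoc1, a matricellular protein that modulates BMP signalling, had the values 0 in FZ, −0.41 in PZ, −0.17 in MZ, 0 in HZ and 6.11 in FCC. Its other probe set, at −0.18 in FZ, 0 in PZ, 0 in MZ, −0.18 in HZ and 1.71 in FCC, was also highest in FCC, with a smaller difference of 1.80. Both probe sets stood at least 1 above all other arrays in FCC and differed little among the zones. Smoc2, its relative, had 0 in FZ, 0 in PZ, −0.034 in MZ, −0.43 in HZ and 1.69 in FCC in its probe set with the widest range, and its other probe sets had ranges of 0.66 and 0.58. FCC was the highest array in all 3.

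Gdf10, a growth factor close to Bmp3 in sequence, is the ligand with the widest range. Its values were 0.57 in FZ, −0.17 in PZ, −0.0045 in MZ, 0 in HZ and 5.94 in FCC. FCC lay 5.37 above the next array, FZ, and the 4 zones were within 0.75 of each other. Smoc1 and Gdf10 were the only 2 of the 101 probe sets in which 1 array stood at least 2 above or under all others, and in both it was FCC (0.799% of all probe sets stood this far above in FCC).

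The chordin family, whose members bind BMPs, lay higher in FCC than in the zones on average. Chrdl2 had −0.65 in FZ, 0.50 in PZ, 0 in MZ, −2.57 in HZ and 2.23 in FCC. Its values separated FCC at the top from HZ at the bottom by 4.80, and the 3 other zones lay between. Chrdl1 had −0.021 in FZ, 0 in PZ, 0.12 in MZ, −0.049 in HZ and 1.34 in FCC, so that FCC stood 1.22 above all zones, which were alike. Chrd had 0.15 in FZ, 0 in PZ, −0.69 in MZ, −0.81 in HZ and 0.78 in FCC, with the deep zones lowest. The differences between FCC and the mean of the zones were 1.33 for Chrdl1 and 1.12 for Chrd.

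Hyaline cartilage markers were also highest in FCC by their list median. That median was −1.39 in FZ, 0 in PZ, 0.26 in MZ, −0.89 in HZ and 2.13 in FCC. Gdf10 did not share the zone order of the list median, which was lowest in FZ, where Gdf10 was higher than in the other zones. Chrdl2, like the list median, was lower in FZ and HZ than in PZ and MZ. The part of these markers in the FCC values of Smoc1, Smoc2, Gdf10 and the chordins was not tested.

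At the lower cut-off, FCC stood above all 4 zones for 7 probe sets, 6.93% of the 101 against 2.40% of all probe sets, and these were of Bmp7, Chrdl1, Chrdl2, Gdf10, Smoc1 and Smoc2. FCC stood under all zones for 1 probe set, of Gdf11 (2.03% of all). Bmp7, a ligand that favours cartilage and bone formation, had −0.24 in FZ, −0.33 in PZ, 0 in MZ, 0 in HZ and 1.34 in FCC. FCC was highest and the zones were within 0.33 of each other. Gdf11, a ligand that acts through activin receptors, had 0.031 in FZ, −0.19 in PZ, 0 in MZ, 0.070 in HZ and −1.42 in FCC, and its other probe set, at −0.14 in FZ, 0 in PZ, 0.12 in MZ, 0.33 in HZ and 0 in FCC, did not place FCC lowest.

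Bmp6, a BMP known from hypertrophic cartilage, had −0.0061 in FZ, −1.05 in PZ, 0.40 in MZ, 0 in HZ and 1.37 in FCC in the probe set with the widest range. PZ was at least 1 under all other arrays, 1 such probe set among the 101 (1.77% of all), and FCC was highest. The other 3 probe sets of Bmp6 had ranges of 0.18 to 0.24, and none of them placed PZ 1 under the rest. Bmp5, a ligand known for its part in skeletal growth, had 0.19 in FZ, 0 in PZ, −1.19 in MZ, −0.54 in HZ and 0.93 in FCC, with FCC highest and MZ lowest, while its other probe set had a range of 0.43. For both ligands a FCC difference of at least 1 was thus seen in 1 probe set of several.

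Superficial and deep zones were compared next. At the cut-off of 2, 2 probe sets were higher in the superficial zones, Ltbp4 with a difference of 3.03 and Tgfbi with 2.02 (0.541% of all), and 0 were higher in the deep zones (0.232% of all). At the lower cut-off 6 were higher in the superficial zones, those of Fstl3, Id4, Inhba, Ltbp2, Ltbp4 and Tgfbi, 5.94% of the 101 against 1.99% of all. A further 7 were higher in the deep zones, those of Bambi, Bmp2, Bmp3, Bmp4, Grem1, Id3 and Inhbb, 6.93% of the 101 against 3.05% of all. With PZ left out, so that FZ alone stood for the superficial side, the counts were 11 and 3, and the 3 were Bambi, Bmp3 and Grem1. At the cut-off of 2 the count of 2 became 1 without HZ or without FZ, where Tgfbi differed by 1.59 and 1.67, and 4 without MZ. The shift to equal hybridization controls moves the median of all probe sets to −0.15 here and gave 5 and 8 at the lower cut-off, with no share over all probe sets computed. The median difference was 0.0026 for the 101 probe sets and 0.015 for all.

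**Figure D4:**
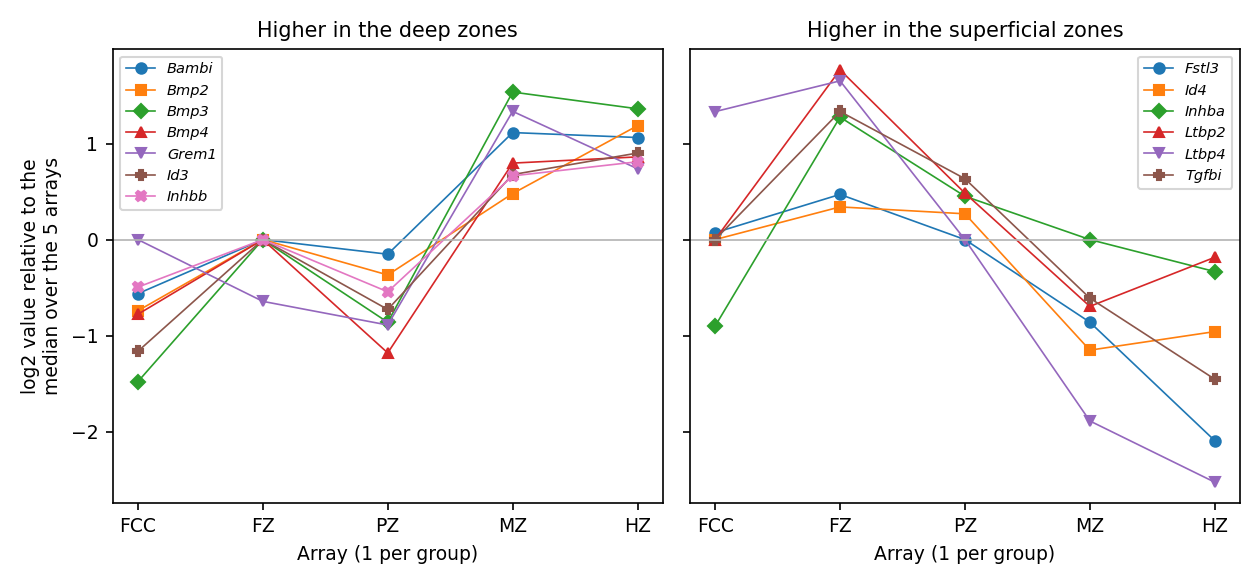
Log2 values relative to the median over the arrays for the 7 probe sets at least 1 higher in the deep zones (left) and the 6 at least 1 higher in the superficial zones (right), in the 5 arrays, with 1 marker and line per probe set to guide the eye. On the left MZ and HZ lie above FZ and PZ for every gene, and FCC lies at or under 0. On the right FZ is the highest array for all 6, and Ltbp4 alone has FCC well above 0.

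The latent TGF-beta binding protein family and Tgfbi, which are matrix proteins, had the highest median range of the groups by role, 2.46, with their 5 probe sets between 1.75 and 4.18. Ltbp4, a latent TGF-beta binding protein that also assembles elastic fibres, had 1.65 in FZ, 0 in PZ, −1.89 in MZ, −2.53 in HZ and 1.33 in FCC. FZ and FCC were highest, and MZ and HZ lay 1.89 and 2.53 under PZ. Tgfbi, a matrix protein named for its induction by TGF-beta, had 1.33 in FZ, 0.63 in PZ, −0.61 in MZ, −1.45 in HZ and 0 in FCC, a decreasing order from FZ to HZ among the zones. Ltbp2, a protein of elastic fibre microfibrils, had 1.77 in FZ, 0.48 in PZ, −0.70 in MZ, −0.18 in HZ and 0 in FCC, and FZ stood 1.28 above the next array. Ltbp1, which holds latent TGF-beta in the matrix, had 0.81 in FZ, −0.77 in PZ, 0 in MZ, −0.50 in HZ and 1.04 in FCC. Ltbp3, with the same role, had 0 in FZ, −0.84 in PZ, −0.093 in MZ, 0.11 in HZ and 0.91 in FCC. In both, FCC was highest and PZ lowest, and neither differed by 1 between superficial and deep zones.

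Fibrous tissue markers moved with Ltbp2, Ltbp4 and Tgfbi, and Ltbp1 and Ltbp3 did not follow them. Their list median was 2.87 in FZ, 0.64 in PZ, −0.54 in MZ, −1.12 in HZ and 0 in FCC. The list holds 11 genes, and 10 were at least 1 higher in the superficial zones. Its part in the values of Ltbp2, Ltbp4 and Tgfbi was not tested.

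Inhba, the activin A subunit, had 1.27 in FZ, 0.45 in PZ, 0 in MZ, −0.33 in HZ and −0.90 in FCC, and its other probe set had 0.86 in FZ, 0.14 in PZ, 0 in MZ, −0.79 in HZ and −0.85 in FCC. Both were highest in FZ and lowest in FCC, and they differed between FZ and FCC by 2.18 and 1.71. Inhbb, the activin B subunit, had 0 in FZ, −0.54 in PZ, 0.66 in MZ, 0.81 in HZ and −0.49 in FCC, so that the deep zones were highest. The 2 activin subunits therefore had opposite differences between superficial and deep zones, 1.03 for Inhba and −1.01 for Inhbb. Inha, Inhbc and Inhbe had ranges of 1.09, 0.14 and 0.96.

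Fstl3, a follistatin relative that binds activins, had 0.47 in FZ, 0 in PZ, −0.86 in MZ, −2.09 in HZ and 0.072 in FCC. HZ was lowest by 1.23, while its other probe set, with a range of 0.62, also had its lowest value in HZ. Follistatin itself, Fst, had ranges of 1.24 and 0.75 in its probe sets, and FCC was the highest array in both. Fstl1, Fstl4 and Fstl5 ranged from 0.19 to 0.74.

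Bmp3, a BMP that opposes the bone-forming BMPs, had the widest range among BMP ligands. Its values were 0 in FZ, −0.86 in PZ, 1.54 in MZ, 1.36 in HZ and −1.48 in FCC. MZ and HZ lay together at the top and FCC at the bottom, 1.99 under the mean of the MCC zones. Bmp4, a bone-forming ligand, had 0 in FZ, −1.18 in PZ, 0.80 in MZ, 0.86 in HZ and −0.78 in FCC. Bmp2, which is close to Bmp4 in sequence and function, had 0 in FZ, −0.37 in PZ, 0.48 in MZ, 1.19 in HZ and −0.74 in FCC in 1 probe set and −0.88 in FZ, −0.62 in PZ, 0 in MZ, 0.082 in HZ and 0.33 in FCC in the other. The deep zones were highest in the first, and the second placed FCC highest and the superficial zones lowest. Both Bmp2 probe sets gave lower values in the superficial zones, by −1.02 and −0.79, but opposite differences between FCC and the zones, −1.07 and 0.68.

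Grem1, an antagonist of Bmp2 and Bmp4, had −0.64 in FZ, −0.89 in PZ, 1.33 in MZ, 0.74 in HZ and 0 in FCC. Both deep zones lay above every other array. Bambi, a pseudoreceptor without a kinase that dampens TGF-beta and BMP signals, had 0 in FZ, −0.15 in PZ, 1.11 in MZ, 1.06 in HZ and −0.56 in FCC. MZ and HZ were alike and at least 1.06 above all other arrays. Noggin (Nog), another BMP antagonist, had a range of 0.40.

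Of the Id genes, which encode inhibitors of helix-loop-helix transcription factors, Id3 had 0 in FZ, −0.73 in PZ, 0.68 in MZ, 0.90 in HZ and −1.16 in FCC. Its order was that of Bmp3 in that FCC was lowest, then PZ, then FZ, with both deep zones above. Id4 had 0.34 in FZ, 0.27 in PZ, −1.15 in MZ, −0.96 in HZ and 0 in FCC in the probe set with the widest range, with MZ and HZ lowest, opposite to Id3, and its other 3 probe sets had ranges of 0.25 to 0.88. Id2 had 1.23 in FZ, 0 in PZ, −0.16 in MZ, −0.21 in HZ and 1.56 in FCC, with FCC and FZ highest, and its other probe set had a range of 0.39. Id1 had −0.37 in FZ, 0 in PZ, 0.057 in MZ, −0.68 in HZ and 0.029 in FCC, with a range of 0.73. The 4 Id genes thus had no common zone order.

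Markers of blood, bone-resorbing and vessel cells were also higher in the deep zones. The list medians of erythroid genes were −0.60 in FZ, −0.48 in PZ, 0.67 in MZ, 1.34 in HZ and 0 in FCC, and 6 of 8 genes were at least 1 higher in the deep zones. Pan-leukocyte genes had 0, −0.77, 0.87, 1.30 and −1.19 in the same order, with 6 of 8 higher in the deep zones. Endothelial genes had 0, −0.23, 0.84, 0.62 and −0.48, with 5 of 8 higher in the deep zones, and megakaryocyte genes 5 of 8. The 3 neutrophil genes measured were all at least 1 higher in the deep zones, with a median superficial minus deep difference of −2.47, and so were 3 of 7 macrophage and 2 of 4 osteoclast genes. Markers of hypertrophic chondrocytes were higher in the deep zones for 4 of 7 genes. The values hold no levels, so how much RNA of such cells was in a capture cannot be read, and fewer cells of a type and less RNA per cell cannot be told apart. Their part in the deep-zone values of Bmp2, Bmp3, Bmp4, Bambi, Grem1, Id3 and Inhbb was not tested.

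Within the superficial layer, FZ was compared with PZ. At the lower cut-off 7 probe sets were higher in FZ, those of Bmp4, Bmp6, Id2, Ltbp1, Ltbp2, Ltbp4 and Tgfb2, 6.93% of the 101 against 5.32% of all, and 1 was lower, that of Chrdl2 (1.92% of all). These shares lie close to those of all probe sets. With the arrays shifted to equal hybridization controls, which moves the median of all probe sets to 0.54, 27 were higher and 0 lower. The share of all probe sets past the cut-off under the shift was not computed, so the 27 are not a result about these genes. Tgfb2 had 1.46 in FZ, −0.093 in PZ, 0 in MZ, −0.31 in HZ and 0.26 in FCC. FZ stood 1.21 above all other arrays, as it did by at least 1 for Ltbp2 (0.454% of all probe sets stood so in FZ), while the other Tgfb2 probe set had a range of 0.22.

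Within the deep layer, MZ and HZ differed by at least 1 for 2 probe sets, Chrdl2 by 2.57 and Fstl3 by 1.23. Both were higher in MZ (0.796% of all), and 0 were higher in HZ (0.332% of all). Both also stood at least 1 under all other arrays in HZ (0.293% of all). All other member probe sets differed between MZ and HZ by less than 1.

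The remaining TGF-beta ligands had ranges of 0.69 for Tgfb1 and 0.95 for Tgfb3. Tgfb1, the form best known from immune and fibrotic tissue, had 0 in FZ, −0.0096 in PZ, 0.10 in MZ, 0.29 in HZ and −0.40 in FCC, and Tgfb3, known from palate and tendon development, had 0.27 in FZ, −0.24 in PZ, 0 in MZ, −0.17 in HZ and 0.72 in FCC. FCC was the lowest array for Tgfb1 and the highest for Tgfb3. Bmp1, which despite its name is a proteinase that processes procollagens, had 0 in FZ, −0.19 in PZ, 0.91 in MZ, 0.71 in HZ and −0.87 in FCC and, in its other probe set, 0 in FZ, −0.46 in PZ, 0.60 in MZ, 0.43 in HZ and −0.34 in FCC. The deep zones were highest in both. Bmp15, Gdf6, Gdf9 and Gdf15 had ranges of 0.13, 0.32, 0.21 and 0.12.

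The median range was 0.53 for receptors, as for Smads and Smurfs, and 1.44 for BMP ligands and 0.99 for antagonists. Bmpr1a, a type I receptor for BMPs, had the widest range among the 14 probe sets and the values 0.20 in FZ, 0 in PZ, −0.31 in MZ, −0.60 in HZ and 0.89 in FCC, with FCC highest and HZ lowest. Tgfbr1, the type I receptor for TGF-beta, had ranges of 1.03 and 0.14 in its probe sets. Acvr2a and Acvr2b, type II receptors for activins, had ranges of 0.98 and 0.81, with FCC lowest for both. Bmpr2, the type II receptor for BMPs, had 0.89 and 0.60, and Acvr1 had 0.80, 0.35 and 0.10. Acvrl1 had 0.46, Acvr1c had 0.26 and the co-receptor Tgfbr3 had 0.37 and 0.11. With the shift to equal hybridization controls, probe sets of Acvr2a, Acvr2b, Bmpr2 and Tgfbr1 were at least 1 lower in FCC than the mean of the zones. Bmpr1a was then no longer at least 1 higher in FCC. Shares of all probe sets under the shift were not computed.

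Smads, which carry the signal from the receptors, had 20 probe sets. Among the Smads of the TGF-beta branch, Smad2 had a range of 1.13 and Smad3 had 1.28 and 0.16. Among those of the BMP branch, Smad1 had 0.72 and 0.46, Smad5 ranged from 0.18 to 1.33 over 4 probe sets, and Smad9 had 1.10 and 0.32. The shared Smad4 had 0.54 and 0.51. The inhibitory Smads, Smad6 over 4 probe sets and Smad7 over 3, ranged from 0.28 to 0.56 and from 0.031 to 0.79. The ubiquitin ligases Smurf1 and Smurf2, which target Smads and receptors, had 0.97 and 0.65, and 1.11 and 0.29. No Smad or Smurf differed by 1 between FCC and the mean of the zones or between superficial and deep zones. With the shift to equal hybridization controls Smad9 and Smurf2 were at least 1 lower in FCC.

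Probe sets of the same gene were set against each other as a description. They share the pool, the amplification and the array, so their spread is not a replicate error. Of the 62 genes, 27 have several probe sets. In 18 of these the widest range was at least 1, in 11 of the 18 another probe set had a range under 0.5, and in 4 of the 18 all probe sets reached 1. The median SD between probe sets of a gene was 0.46 for FCC against the zones, 0.23 for superficial against deep, 0.28 for FZ against PZ and 0.20 for MZ against HZ. Over all genes with several probe sets it was 0.26, 0.20, 0.30 and 0.12 in the same order. Genes counted above at the lower cut-off on 1 probe set of several were Bmp1, Bmp2, Bmp5, Bmp6, Fstl3, Gdf11, Id2, Id4, Inhba, Smoc2 and Tgfb2.

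**Figure D5:**
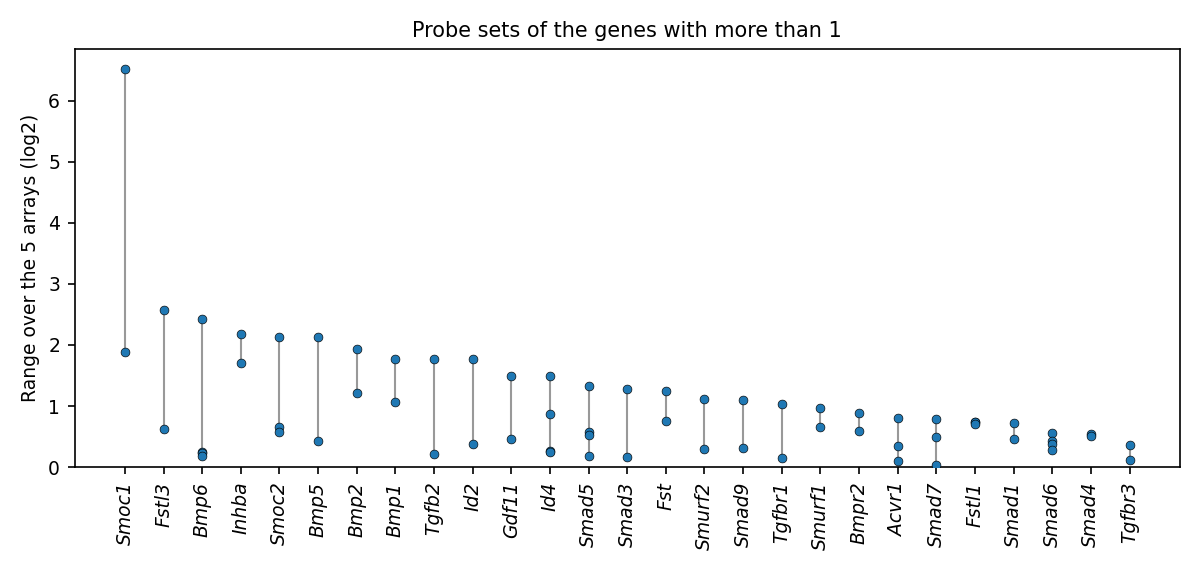
Range over the 5 arrays on the log2 scale for each probe set (points) of the 27 genes with more than 1, joined by a grey line per gene and ordered by the widest range. The probe sets of Bmp6, Bmp5 and Tgfb2 lie far apart, at 0.18 to 2.42, 0.43 to 2.13 and 0.22 to 1.77, while those of Inhba, at 1.71 and 2.18, lie close.

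Other genes of the pathways, outside the symbols above, were counted with the mean of their probe sets. Their lists were chosen with earlier results of these data known, so the shares below are a description only. Of 32 extracellular modulators, FCC was at least 1 above the mean of the zones for 7 and at least 1 under it for 4, 21.9% and 12.5%, while 4.70% and 5.13% of all 14217 genes were. Of the same 32, 3 were higher and 2 lower in the superficial than in the deep zones. Of 36 intracellular regulators, 3 were higher and 2 lower in FCC, and 1 was higher and 0 lower in the superficial zones. Of 31 common target genes, 1 was higher and 7 were lower in FCC, and 6 were higher and 3 lower in the superficial than in the deep zones, where 2.15% and 3.57% of all genes were. Some genes are shared with the marker lists above. Postn among the targets and Aspn among the modulators are also fibrous tissue markers, and Eng among the modulators is also an endothelial marker.

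Crim1, a membrane protein that binds BMPs, had −0.33 in FZ, −0.80 in PZ, 0.13 in MZ, 0 in HZ and 2.75 in FCC. Amhr2, the type II receptor for anti-Müllerian hormone, had −0.36 in FZ, 0.79 in PZ, 0 in MZ, −0.048 in HZ and 2.69 in FCC, and Rgma, a BMP co-receptor, had 0 in FZ, 0 in PZ, −0.46 in MZ, −1.07 in HZ and 1.24 in FCC. FCC was the highest array for all 3, as for Smoc1, Gdf10 and Chrdl2.

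Asporin (Aspn), a small proteoglycan that binds TGF-beta, had 2.87 in FZ, 2.64 in PZ, 0 in MZ, −2.25 in HZ and −0.47 in FCC as the mean of its probe sets, and fibromodulin (Fmod), another such proteoglycan, had 0.79 in FZ, 0 in PZ, −1.12 in MZ, −4.12 in HZ and 1.19 in FCC. Both were lowest in HZ. Fbn2, a fibrillin of microfibrils, had 2.47 in FZ, 0 in PZ, −0.48 in MZ, −0.025 in HZ and 0.036 in FCC, with FZ alone high, as for Ltbp2.

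Nbl1, a BMP antagonist of the gremlin family, had 1.29 in FZ, −1.34 in PZ, 0 in MZ, 0.17 in HZ and −0.28 in FCC, with FZ highest and PZ lowest. Nrros, which anchors latent TGF-beta on myeloid cells, had 0 in FZ, −0.17 in PZ, 1.10 in MZ, 1.60 in HZ and −0.77 in FCC, and the deep zones were highest, as were the leukocyte markers. Dab2, an adaptor protein of receptor traffic, had 0.11 in FZ, −1.70 in PZ, −0.049 in MZ, 0 in HZ and 1.33 in FCC, with FCC highest and PZ lowest.

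Among common target genes, periostin (Postn) had 1.06 in FZ, 0.98 in PZ, 0 in MZ, −1.77 in HZ and −1.66 in FCC, and the lysyl oxidase relatives had 1.63 in FZ, 0.38 in PZ, −0.86 in MZ, −1.17 in HZ and 0 in FCC for Loxl1 and 0.56 in FZ, 0.82 in PZ, −0.31 in MZ, −1.30 in HZ and 0.041 in FCC for Loxl2. All 3 were lower in the deep than in the superficial zones. Tagln, an actin-binding protein, had 1.84 in FZ, 1.02 in PZ, −0.20 in MZ, 0 in HZ and −0.69 in FCC, with FZ highest. Lox, the lysyl oxidase that crosslinks collagen, had −0.095 in FZ, −0.062 in PZ, 0.13 in MZ, 0.25 in HZ and −2.22 in FCC, and Dlx3, a homeobox factor induced by BMPs, had 0 in FZ, −0.19 in PZ, 1.10 in MZ, 1.21 in HZ and −1.13 in FCC. FCC was the lowest array for Tagln, Lox and Dlx3.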

How the data were processed

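The authors pooled captured cells by group, amplified the RNA in 2 linear cycles and hybridized 1 Affymetrix rat genome array per group. The submitters' processing notes list MAS5 and RMA, with no version. The values deposited are log2 values after quantile normalization by the authors, less each probe set's own median over the 5 arrays. They keep neither a level nor a background; 1 array per group sets the precision. The build behind the array annotation is not given in those sources.

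Control probe sets (57) were left out, and symbols were those of the platform annotation. Differences between arrays and counts past a log2 difference of 2 or 1 were computed in Python 3.11.15 with pandas 2.3.3 and numpy 2.4.6 (figures: matplotlib 3.10.9). The functions were tested on simulated data. No p-value or SD between replicates can be given. Every probe set with a range of at least 2 was named, with the other probe sets of its gene, and ligands, receptors and Smads by their ranges. Other members whose counts are small were named after their values were seen. The members and lists were chosen with earlier results of these data known.

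The alternatives were centring each array, a shift to equal hybridization controls, cut-offs of 1.4 and 1, 1 value per gene, counting probe sets with several symbols and leaving out PZ. Leaving out FZ, MZ or HZ, and the shift at the cut-off of 1, were added after the data were seen. Promoters and their coordinates came from the RefSeq table for GRCr8.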

Additional observations from a re-analysis of the deposited data

How the results depend on the processing

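With 1 array per group, every count describes these arrays only. No paired analysis was possible because each group has 1 sample and no test was run. The median of all probe sets was already 0 in each array, so centring each array could change no count. Counting probe sets with several symbols kept every count within 1.5 times its main value, as did taking the probe set with the largest range of each gene. For the count over any pair that last choice could change nothing either, because its 15 probe sets belong to 15 genes.

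Lowering the cut-off from 2 to 1.4 and to 1 gave larger counts. Probe sets past it in any pair numbered 15, then 29 and 41, and those with 1 array apart 2, then 5 and 12. At the cut-off of 1, 8357 of all 31042 probe sets were past it in any pair. Shares over all probe sets were not computed at 1.4, for any array apart, or at 1 for a single zone against FCC. Counts without such a share are not set against the whole array. FCC above the mean of the zones gave 4, then 8 and 15, and FCC under it 0, then 1 and 7. The superficial zones were higher for 2, then 4 and 6, and the deep zones for 0, then 3 and 7. FZ was above PZ for 0, then 3 and 7, and under it for 0 and, at 1, for 1. MZ was above HZ for 1 and, at 1, for 2. Against FCC, probe sets higher and lower were 5 and 6, then 9 and 9 in FZ; 10 lower, then 3 higher and 14 lower in PZ; 6 and 9, then 10 and 15 in MZ; and 7 and 13, then 10 and 17 in HZ.

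The shift to equal hybridization controls gave 1 probe set at which FCC lay under the zones, 1 higher in the superficial and 1 in the deep zones and 3 higher in FZ than in PZ at the cut-off of 2. Against FCC it gave 5 higher in FZ, 5 higher and 3 lower in MZ and 7 higher in HZ. At the cut-off of 1 it gave 8 higher and 16 lower in FCC, and 27 higher and 0 lower in FZ than in PZ. None of these shifted counts has a share over all probe sets beside it. Averaging a gene's probe sets gave 0 higher in FZ than in FCC at 2, and at 1 it gave 4 lower in FCC, 3 higher in the superficial zones, 4 higher in FZ than in PZ and 1 higher in MZ than in HZ.

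Leaving out PZ gave 1 probe set lower in FCC at 2 (Bmp3), as did leaving out FZ, and, at 1, 11 higher in the superficial and 3 in the deep zones. For the superficial zones at 2, the count of 2 became 1 without HZ, 4 without MZ and 1 without FZ, and for the deep zones it was 1 without HZ and 2 without FZ. Chrdl2, 1.21 higher in the superficial than in the deep zones, was at −0.074 without HZ. Of 27 named differences of at least 1, 27 kept their sign under the shift and 24 stayed at least 1. The causes were not tested.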
